A study of Mus musculus with 35 samples.

Results

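The 4 Rag GTPase genes (Rraga, Rragb, Rragc and Rragd) and the 5 Ragulator subunit genes (Lamtor1 to Lamtor5) were followed in 35 whole-kidney RNA libraries of newborn mice. These 9 genes were taken by name from the Symbol column of the one deposited count table that holds gene symbols, and were joined by Ensembl identifier to every other library, out of 31053 genes in all. Kidneys came from C57BL/6 mice at postnatal day 2, from 3 crosses, each with its own controls. Where 3 values stand in a row below, they follow the order Flcn, Flcn/Tfeb, Flcn/Tfe3. In the Flcn cross, 5 libraries labelled Flcn-KO, here Flcn KO (Flcn flox/flox; Ksp-cre+) were compared with 5 labelled control_Flcn. In the Flcn/Tfeb cross, 4 libraries labelled DKO_Flcn-Tfeb (both Flcn and Tfeb flox/flox, with Ksp-cre+) were compared with 3 labelled control_Flcn-Tfeb. In the Flcn/Tfe3 cross, 10 libraries labelled DKO_Flcn-Tfe3 (Flcn flox/flox; Ksp-cre+; Tfe3-/-) were compared with 8 controls of that cross. The genotypes in parentheses are those the study gives for these mice. The labels name the controls only as controls of their cross, and the study describes its control mice as Flcn flox/flox, without saying which Tfeb or Tfe3 alleles the controls of the other crosses carry. Ksp-cre is driven by the cadherin 16 promoter and acts in collecting ducts, distal tubules and the thick ascending limb, so the floxed genes stay intact in the other cells of the kidney, whereas the Tfe3 deletion is carried by every cell.

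Rag GTPases relay amino acid supply to the kinase complex mTORC1. RagA or RagB pairs with RagC or RagD, and the pair sits on the lysosome, where Ragulator, a pentamer of the Lamtor proteins, anchors it. Folliculin, the product of Flcn, works on RagC and RagD as a GTPase activating protein, which lets mTORC1 act on TFEB and TFE3, transcription factors of lysosomal genes that are kept in the cytoplasm once phosphorylated. Rragd is known as a target gene of these factors, and variants of its human counterpart cause an inherited disorder of kidney tubules.

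The libraries were placed in 3 sets by how their counts were deposited, and the sources do not say which were processed together. Set A, deposited library by library, holds the Flcn and Flcn/Tfeb crosses. Sets B and C, deposited as separate tables, hold the Flcn/Tfe3 cross, with 6 mutants and 3 controls in set B and 4 mutants and 5 controls in set C. Total counts on genes were 1652649 to 4239356 per library. In set C all mutants (3159884 to 3555791) were deeper than all controls (1719367 to 2909353), so depth and genotype cannot be told apart there. One library stood apart, control Flcn/Tfeb replicate 3, whose mean correlation with the other controls of its cross was 0.880, the lowest of all 35 libraries, and whose share of mitochondrial counts was 4.47%, where the other controls of that cross had 9.16% and 10.7%. The Flcn controls held the same 2 ranges of that share, 4.88% and 4.93% in replicates 4 and 5 and 9.98% to 11.1% in the other 3, while the mean correlation with the other Flcn controls was 0.951 to 0.956 in all 5. Markers of kidney epithelium were present in every group: none of the 5 thick ascending limb, 5 principal cell and 5 intercalated cell markers was at 0 in all libraries of a group. The targeted genes could not be checked this way, because 3′ reads need not fall in the deleted exons. The log2 fold changes of Flcn, mutants over controls, were 0.09, 0.11 and 0.20, that of Tfeb where it was deleted was -0.73 and that of Tfe3 where it was deleted was -0.09, none of them called.

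The sequence before the start site is shown for Rragd, the member that differed between groups, for its paralog Rragc, which did not pass the test, and for Lamtor4, the member with the most copies of the motif among those tested. They were read from RefSeq (GRCm38.p6) as the 250 bases before the start site, at chr4:32982748-32982997, chr4:123917183-123917432 and chr5:138255232-138255481, all on the plus strand, and capitals mark CACGTG, the E-box core of the element that TFEB and TFE3 bind.
Rragd: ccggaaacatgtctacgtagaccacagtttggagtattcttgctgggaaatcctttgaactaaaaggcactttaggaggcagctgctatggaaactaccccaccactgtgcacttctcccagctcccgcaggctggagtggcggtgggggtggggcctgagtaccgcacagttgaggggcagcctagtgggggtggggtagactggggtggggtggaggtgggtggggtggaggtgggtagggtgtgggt
Rragc: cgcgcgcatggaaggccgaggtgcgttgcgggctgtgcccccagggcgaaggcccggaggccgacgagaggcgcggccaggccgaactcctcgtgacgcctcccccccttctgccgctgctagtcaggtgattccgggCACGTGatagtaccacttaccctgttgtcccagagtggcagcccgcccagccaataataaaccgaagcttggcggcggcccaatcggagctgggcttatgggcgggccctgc
Lamtor4: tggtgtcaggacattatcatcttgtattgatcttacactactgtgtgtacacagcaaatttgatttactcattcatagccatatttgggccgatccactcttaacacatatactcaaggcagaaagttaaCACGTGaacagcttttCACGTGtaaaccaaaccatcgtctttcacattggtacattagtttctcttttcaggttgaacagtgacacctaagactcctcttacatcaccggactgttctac

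Promoter windows of 300 bases, from 250 before to 50 after the start site, were matched for 8 of the 9 members, with no entry used for Lamtor3. CACGTG, which reads the same on both strands, occurred in 7.15% of all 32851 windows in that table. The Rragd window held none, and neither did those of Rraga, Lamtor2 and Lamtor5. Rragb had 3 copies, starting at positions -127, -36 and -3 from the start site, Lamtor4 had 2 (positions -120 and -104), Rragc had 1 at position -112 and Lamtor1 had 1 at position -68. All 4 of these windows also held the longer TCACGTG on one strand or the other, a string found in 3.77% of all windows. These letters describe only this window and say nothing of more distant sequence.

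Rragd (ENSMUSG00000028278, chromosome 4 from 32983037 to 33022180, plus strand, GENCODE M21 on mm10) encodes RagD. Levels are given as CPM, the counts of a gene divided by the library total after edgeR's TMM scaling of all libraries together. In the Flcn KO libraries Rragd had 53.6, 56.6, 56.4, 54.1 and 55.9 CPM, and in their controls 32.5, 12.3, 24.0, 30.5 and 26.2 CPM. Every KO library was above every control, and the KO libraries lay within a narrow band while the controls spread widely, with control replicate 2 the lowest. The means were 55.3 ± 1.39 (SD, n = 5) and 25.1 ± 7.90 (SD, n = 5). The log2 fold change was 1.13 (SE 0.18, 95% interval 0.75 to 1.5, adjusted p = 0.0032 from edgeR's quasi-likelihood test over 11932 genes, called at an adjusted p under 0.05), a 2.18-fold rise in whole-kidney RNA. In bulk RNA, more cells of a type and more RNA per cell cannot be told apart.

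Rragd levels were low in both groups of the Flcn/Tfeb cross. The DKO libraries had 23.9, 23.4, 20.6 and 18.9 CPM and the controls 15.8, 10.5 and 19.9 CPM. The groups overlapped, since DKO replicate 4 lay under control replicate 3, the library that stood apart. Rragd did not pass the test, with a log2 fold change of 0.45 (SE 0.26, 95% interval -0.13 to 1.03, adjusted p = 0.80 from edgeR), an interval that includes 0. The estimate moved with single controls, to 0.25 without control replicate 2 and to 0.71 without control replicate 3, where the unadjusted edgeR p was 0.017 and the adjusted p 0.93.

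Rragd rose again in the Flcn/Tfe3 cross. The lowest, median and highest of the 10 DKO libraries were 46.5, 52.1 and 60.6 CPM, and those of the 8 controls 16.7, 19.7 and 26.3 CPM. No DKO library came near a control. The log2 fold change was 1.34 (SE 0.10, 95% interval 1.13 to 1.55, adjusted p = 2.87e-08 from edgeR with the set as a term), or 2.53-fold. It was seen in each set, at 1.14 in set B (adjusted p = 0.013, DKO 46.5 to 60.6 and controls 22.7 to 26.3 CPM) and at 1.51 in set C (adjusted p = 6e-05, DKO 51.0 to 55.9 and controls 16.7 to 20.8 CPM). The set C effect less the set B effect, a contrast added after seeing the data, was 0.41 (SE 0.19, adjusted p = 0.21 from edgeR), not called where 1.3% of 12456 genes were.

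Across the 6 groups the mean Rragd level ran from 15.4 ± 4.69 CPM (SD, n = 3) in the Flcn/Tfeb controls through 20.4 ± 3.39 (SD, n = 8) in the Flcn/Tfe3 controls, 21.7 ± 2.35 (SD, n = 4) in the Flcn/Tfeb DKO and 25.1 in the Flcn controls to 52.7 ± 4.69 (SD, n = 10) in the Flcn/Tfe3 DKO and 55.3 in the Flcn KO. Each group overlapped its neighbours in this order, except at the step from the Flcn controls to the Flcn/Tfe3 DKO, where the highest control had 32.5 and the lowest DKO 46.5 CPM. Sets were deposited apart and may have been processed apart, so levels across them were set side by side and not tested. The Flcn/Tfeb DKO libraries were thus within the range of the controls of the other crosses.

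**Figure D1:**
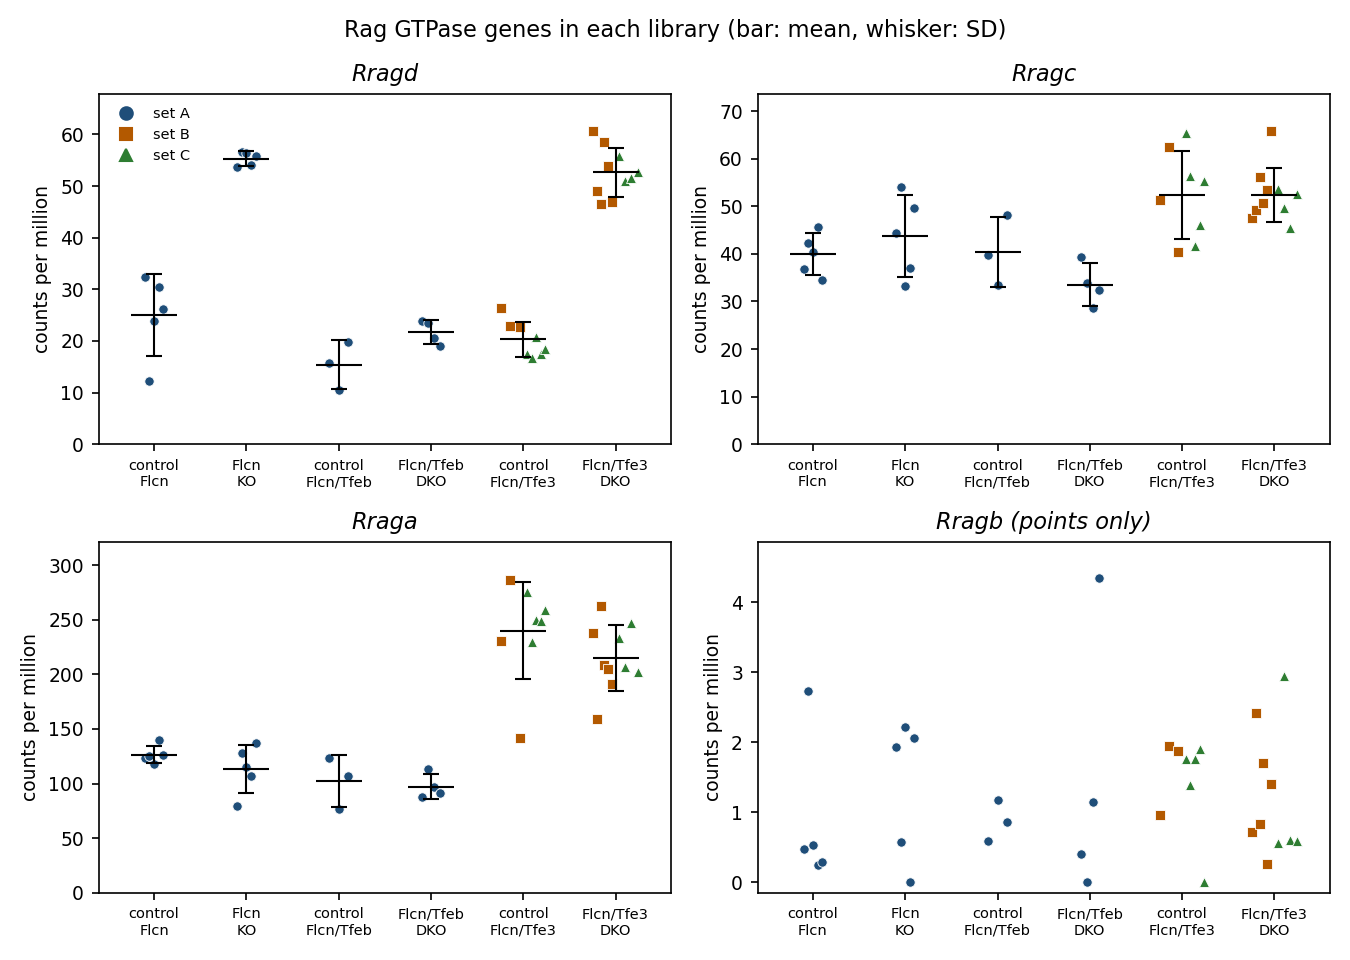
Levels of the 4 Rag GTPase genes in CPM (vertical axis) in each of 35 libraries by group, where each point is a library, its shape the set, and bars with whiskers the mean and SD, which were left out for Rragb. Rragd lies between 46.5 and 60.6 CPM in the Flcn KO and Flcn/Tfe3 DKO libraries and at or under 32.5 CPM in all others, while Rraga separates set A from sets B and C in mutants and controls alike.

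The effects on Rragd were compared between crosses by interaction contrasts. The Flcn/Tfeb effect was smaller than the Flcn effect by 0.70 on the log2 scale (95% interval of the difference -1.36 to -0.03, unadjusted p = 0.041, adjusted p = 0.82 from edgeR), which was not called. Such a difference was called for 0.0153% of 13049 genes. It was -0.42 without control Flcn/Tfeb replicate 3 (unadjusted p = 0.24 from edgeR) and -0.89 without control Flcn/Tfeb replicate 2 (unadjusted p = 0.011), the ends of the range over left-out libraries. The Flcn/Tfe3 effect exceeded the Flcn/Tfeb effect by 0.88 (SE 0.22, 95% interval 0.43 to 1.34, unadjusted p = 0.00041, adjusted p = 0.26 from edgeR), again not called, where 0.022% of 13637 genes were. Without control Flcn/Tfeb replicate 2 it was 1.07 (adjusted p = 0.028 from edgeR) and without control replicate 3 it was 0.63 (adjusted p = 1). The Flcn/Tfe3 and Flcn effects differed by 0.21 (95% interval -0.18 to 0.61, adjusted p = 0.79 from edgeR). That comparison called 0% of 13209 genes (978 at an unadjusted p under 0.05, and 1 gene by DESeq2). The Rragd difference was 0.008 with set B alone (adjusted p = 0.9999 from edgeR) and 0.393 with set C alone (adjusted p = 0.32 from edgeR), neither called. Leaving out 1 library at a time gave 0.118 to 0.375, none called.

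None of the other 7 members tested was called in any of the 3 crosses. Of 8 members that passed the filter on low counts, 1 was called in the Flcn cross, where 0.52% of all 11932 genes tested were called, and it was Rragd. The Flcn/Tfe3 cross also had 1 of 8 called, again Rragd, beside 0.385% of 12456 genes. With both Flcn and Tfeb deleted, edgeR called 0 of 8 members and 0% of 12469 genes, 632 of which had an unadjusted p under 0.05, none of them a member, and DESeq2 also called 0 genes. Groups in which every mutant lay above every control were found for 1, 0 and 1 of 8 members, beside 1.69%, 2.9% and 0.112% of all genes tested, and that member was Rragd both times. By size of log2 fold change, Rragd stood at rank 36 from the highest of 11932 genes, at rank 1173 of 12469 and at rank 12 of 12456.

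**Figure D2:**
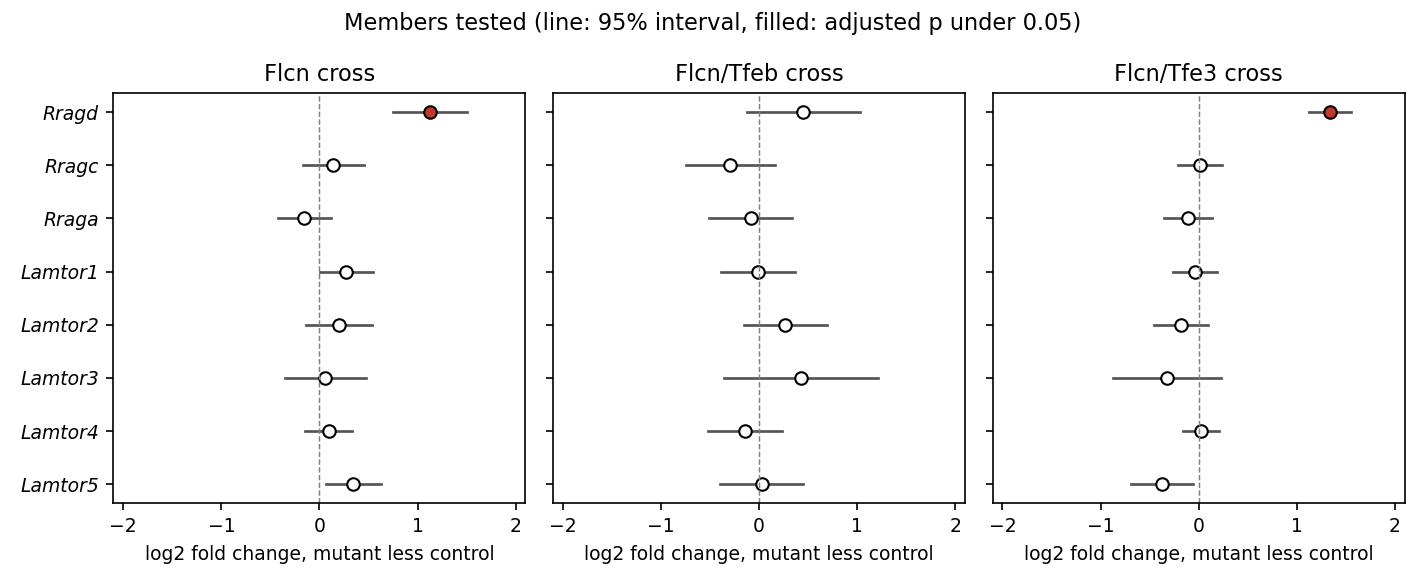
Log2 fold change of mutants over controls (horizontal axis) for the 8 members tested in each cross, with 95% intervals from edgeR as lines and filled points for an adjusted p under 0.05. Only Rragd has filled points, at 1.13 in the Flcn cross and 1.34 in the Flcn/Tfe3 cross.

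Rragc (ENSMUSG00000028646, chromosome 4 from 123917446 to 123936997) encodes RagC, which takes the same place as RagD in the pair. Its means were 43.7 ± 8.63 CPM in the Flcn KO and 39.9 ± 4.45 in the controls (SD, n = 5 each), 33.5 ± 4.48 (SD, n = 4) in the Flcn/Tfeb DKO and 40.4 ± 7.39 (SD, n = 3) in the controls, and 52.4 ± 5.66 (SD, n = 10) in the Flcn/Tfe3 DKO and 52.4 ± 9.21 (SD, n = 8) in the controls. All 3 pairs of groups overlapped. The log2 fold changes were 0.14, -0.29 and 0.01, and the 95% interval in the Flcn/Tfe3 cross, from -0.22 to 0.23, lies below the whole interval of Rragd. Both Rragc and Rragd overlap a processed pseudogene (Gm12902 and Gm11943), so reads shared with them are uncertain. The sign in the Flcn/Tfe3 cross was negative with RLE factors and with DESeq2.

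The ratio of Rragd to Rragc was taken within each library, as log2 of the counts plus 0.5, which needs no scaling between libraries. It reuses the Rragd counts tested above. In the Flcn and Flcn/Tfe3 crosses, where Rragd alone separated the groups, its p-values are therefore not independent support for the Rragd rise. In the Flcn cross it was 0.27, 0.07, 0.76, 0.54 and 0.17 in the KO libraries and -0.18, -1.77, -0.75, -0.58 and -0.39 in the controls. Every KO library lay above every control. The means differed by 1.09 (two-sided exact permutation over 252 regroupings, p = 0.0079, the least that they can give, and 0.012 after Benjamini-Hochberg adjustment over the 3 crosses).

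For the Flcn/Tfeb cross the ratio was -0.72, -0.52, -0.47 and -0.77 in the DKO libraries and -1.32, -1.64 and -1.27 in the controls. The groups did not overlap, and the means differed by 0.79 (two-sided exact permutation over 35 regroupings, p = 0.029, the least possible, and 0.029 after adjustment). Here Rragc itself had a log2 fold change of -0.29, and Rragd itself overlapped between the groups and was not called. By level, 2.9% of all 12469 genes tested in this cross had every mutant above every control. Such a share was not computed for ratios. Leaving out any one library of this cross gave 0.67 to 0.86 with exact p of 0.067 to 0.1, since fewer libraries allow no smaller p.

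For the Flcn/Tfe3 cross the ratio was 0.01 ± 0.24 (SD, n = 10) in the DKO libraries, from -0.48 to 0.35, and -1.35 ± 0.39 (SD, n = 8) in the controls, from -1.88 to -0.83. The groups did not overlap, and the difference within sets was 1.33 (two-sided exact permutation over the 10584 regroupings that keep the sets, p = 9.45e-05, the least possible, and 0.00028 after adjustment). Set B gave 1.04 and set C gave 1.58, without overlap in either. Counts of 2 genes from 3′ reads do not give their molar ratio, so the sign of a single value carries no meaning and the groups were compared only with each other.

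**Figure D3:**
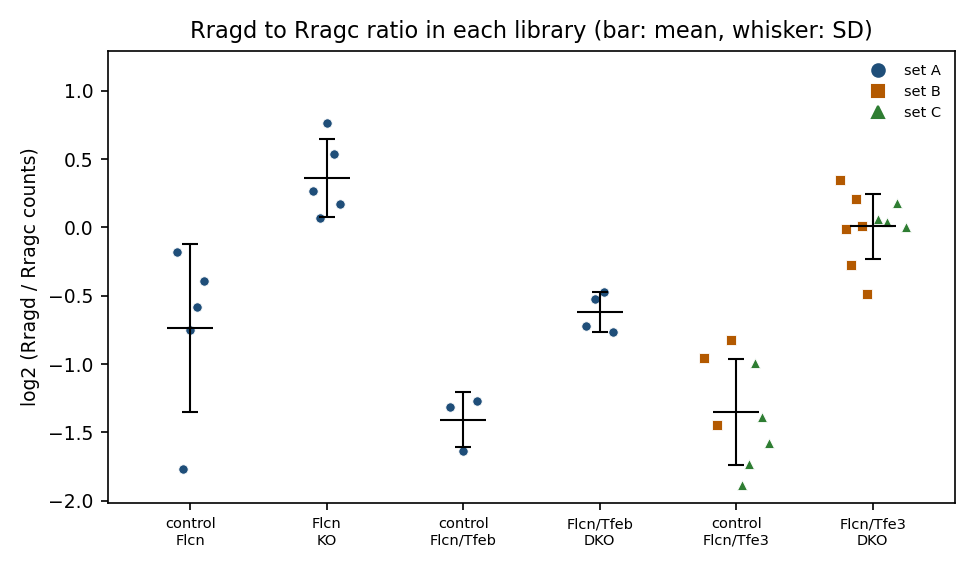
Log2 ratio of Rragd to Rragc counts (vertical axis) in each library by group, with the mean and SD as bar and whiskers and the set as the shape of the point. Mutants lie above all controls in each cross, by 1.09, 0.79 and 1.33 on average, and the Flcn/Tfeb DKO libraries reach only the level of the Flcn controls.

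Ratios of Rragd to the other members are given as values with no test. They all share the Rragd counts, so they repeat the Rragd result and are not separate findings. No share of non-overlapping groups was computed for ratios of other genes. The ratios were higher in the mutants of the Flcn and Flcn/Tfe3 crosses. In the Flcn cross the difference of the log2 ratio was 1.39 against Rraga and 0.85 to 1.13 against the 5 Lamtor genes, with no overlap of the groups except against Lamtor3. With both Flcn and Tfe3 deleted it was 1.44 against Rraga and 1.33 to 1.77 against the Lamtor genes, again with an overlap only against Lamtor3. With both Flcn and Tfeb deleted it was 0.58 against Rraga and -0.01 to 0.65 against the Lamtor genes, and the groups overlapped against Lamtor2, Lamtor3 and Lamtor5.

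Rraga (ENSMUSG00000070934, chromosome 4 from 86575668 to 86577285) encodes RagA, a partner of RagC and RagD. It had 113 ± 22 CPM in the Flcn KO and 127 ± 8.10 in the controls (SD, n = 5 each), 97.2 ± 11.6 (SD, n = 4) in the Flcn/Tfeb DKO and 102 ± 23.5 (SD, n = 3) in the controls, and 215 ± 30.2 (SD, n = 10) in the Flcn/Tfe3 DKO and 240 ± 44.3 (SD, n = 8) in the controls. The highest library of set A had 140 CPM and the lowest of sets B and C 142 CPM, so the level separated set A from the other sets in mutants and controls alike, a split that cannot be told apart from the crosses. Within crosses the log2 fold changes were -0.16, -0.09 and -0.11, with 95% intervals from -0.43 to 0.12, -0.51 to 0.34 and -0.36 to 0.13, and none was called by edgeR.

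Rragb (ENSMUSG00000041658, chromosome X from 153139981 to 153171943) encodes RagB, which stands in for RagA in some tissues. It had 0 to 11 counts per library, with a median of 3, and did not pass the filter in any cross. In 3 libraries it had 0 counts, namely Flcn KO replicate 4, Flcn/Tfeb DKO replicate 2 and control Flcn/Tfe3 replicate 8, where 0 counts allow up to 1.89, 1.95 and 1.18 CPM (3 counts on the scale of these CPM, for counting error only). No difference between groups was detectable at this depth: without the filter the log2 fold changes were 0.79 (SE 0.80), 0.77 (SE 1.08) and -0.26 (SE 0.53), with adjusted p of 0.75, 0.84 and 0.92 from edgeR.

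The Ragulator genes showed no call in any cross. Lamtor1 (ENSMUSG00000030842, chromosome 7 from 101905904 to 101926675) encodes the subunit that ties the complex to the lysosomal membrane through its lipid anchor. It had 179 ± 17.5 CPM in the Flcn KO and 148 ± 24.6 in the controls (SD, n = 5 each), a log2 fold change of 0.28 (unadjusted p = 0.044, adjusted p = 0.54 from edgeR), and the groups overlapped. In the Flcn/Tfeb and Flcn/Tfe3 crosses it was -0.01 and -0.04. The Lamtor1 gene overlaps Tomt and Lrrc51 on the opposite strand, which had at most 3 and 30 counts per library where Lamtor1 had at least 219.

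Lamtor2 (ENSMUSG00000028062, chromosome 3 from 88549819 to 88553074, minus strand) and Lamtor3 (ENSMUSG00000091512, chromosome 3 from 137918506 to 137928900) encode subunits that pair with each other, and Lamtor3 was first described as a scaffold of MAP kinase signalling. Lamtor2 had log2 fold changes of 0.20, 0.27 and -0.18, with overlapping groups in each cross. Lamtor3 was the most variable tested member, from 4.70 to 57.9 CPM, with log2 fold changes of 0.06, 0.43 and -0.33 and a 95% interval from -0.36 to 1.22 in the Flcn/Tfeb cross. The value in that cross was 0.03 without control replicate 3, the library that stood apart, which had 10.1 CPM where the other controls had 26.9 and 32.2, and 0.77 without control replicate 1. Its levels in the Flcn/Tfe3 controls differed by set, from 9.89 to 19.9 CPM in set B and from 27.2 to 57.9 CPM in set C.

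Lamtor4 and Lamtor5 encode the other pair of subunits. Lamtor4 (ENSMUSG00000050552, chromosome 5 from 138255482 to 138259398) was the steadiest of the Ragulator genes in the Flcn KO, with 89.4 to 95.5 CPM against 71.4 to 101 CPM in the controls, and its log2 fold changes were 0.09, -0.14 and 0.02. Lamtor5 (ENSMUSG00000087260, chromosome 3 from 107278858 to 107284082) had 104 ± 9.76 CPM in the Flcn KO and 82.4 ± 15.8 in the controls (SD, n = 5 each), and 69.7 ± 21.3 (SD, n = 10) in the Flcn/Tfe3 DKO and 86.3 ± 17 (SD, n = 8) in the controls. Its log2 fold changes were 0.34 (unadjusted p = 0.019, adjusted p = 0.42 from edgeR), 0.02 and -0.37 (unadjusted p = 0.024, adjusted p = 0.56 from edgeR). The groups overlapped in each cross. The Flcn/Tfe3 effect less the Flcn effect was -0.71 (95% interval -1.19 to -0.24, unadjusted p = 0.0045, adjusted p = 0.66 from edgeR), not called, and with set C alone it was -1.03 (adjusted p = 0.033), in a comparison that called 3.58% of 12826 genes, 346 of 459 with a lower effect, while with set B alone it was -0.40 (adjusted p = 0.9999 from edgeR).

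The Lamtor5 difference in the Flcn/Tfe3 cross lay in set C. There the DKO libraries had 44.0, 54.7, 55.8 and 64.1 CPM and the controls 96.5, 93.4, 62.2, 76.6 and 113 CPM, and they overlapped by 1 control. In set B the DKO libraries ran from 62.1 to 113 CPM and the controls from 73.3 to 101 CPM. Fitted alone, set C gave a log2 fold change of -0.71 (adjusted p = 0.023 from edgeR, called) and set B -0.05 (adjusted p = 0.96). The difference between the sets was -0.61 (SE 0.28, unadjusted p = 0.036, adjusted p = 0.19 from edgeR), not called. In set C alone edgeR called 569 of 12169 genes (4.68%), 460 of them lower, and in set B 8 of 13191 (0.0606%), all higher. Depth moves with this result, as the set C mutants are deeper, and so do red blood cell markers: their 3 genes summed to 998.3 to 1351 CPM in the set C mutants and 1505 to 5533 in the set C controls, without overlap, but to 2391 to 4648 and 2568 to 4422 CPM in set B. The part of either in the result was not tested.

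In the contrast between the sets, added after seeing the data, all 7 members other than Rragd had a lower effect in set C than in set B. They were lower by 0.11 to 0.61, with a median of -0.45, while the median over all 12456 genes tested was 0.04. None of the 7 was called with all libraries, where 1.3% of genes were. Levels of some of the 7 move together, so these are not separate results. For Lamtor2 the values were -0.52 in set C and 0.12 in set B, and the difference of -0.59 was not called (adjusted p = 0.15 from edgeR). Without control Flcn/Tfe3 replicate 6, its lowest control at 21.9 CPM, that difference was -0.74 (adjusted p = 0.024 from edgeR). In the 3 crosses the 7 members had log2 fold changes from -0.16 to 0.34, from -0.29 to 0.43 and from -0.37 to 0.02, with medians of 0.14, -0.01 and -0.11 beside medians over all genes tested of -0.01, -0.02 and 0.01.

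**Figure D4:**
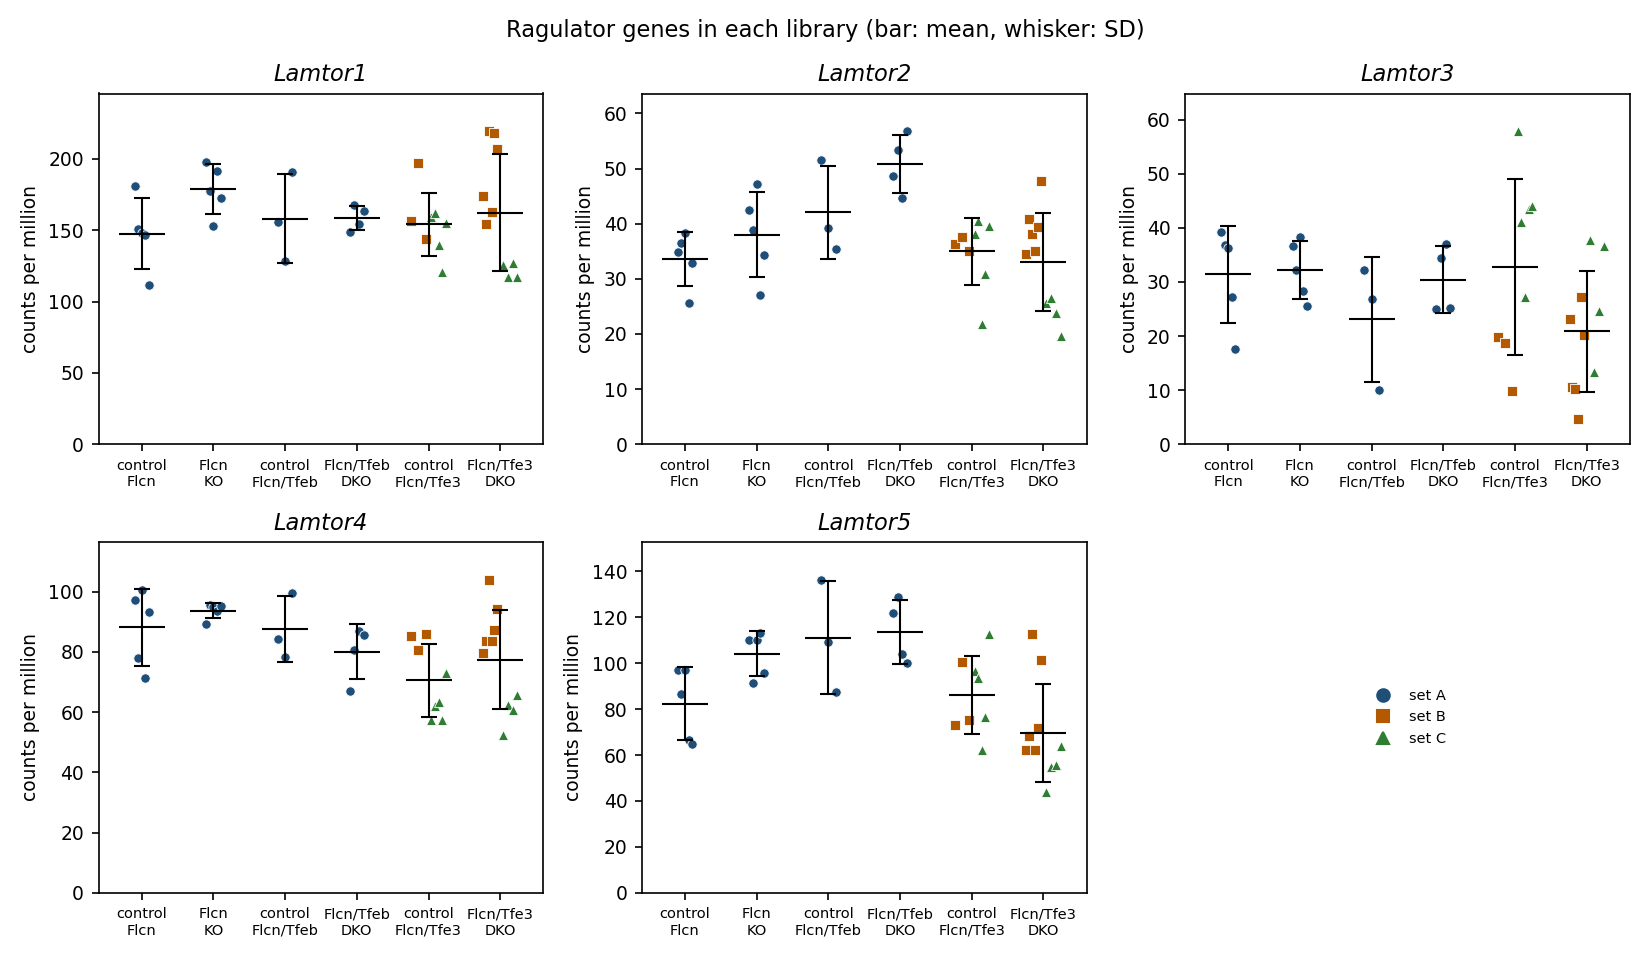
Levels of the 5 Ragulator genes in CPM (vertical axis) in each library by group, with the mean and SD as bar and whiskers and the set as the shape of the point. Mutants and controls overlap for each gene in each cross, and for Lamtor5 the 4 set C mutants lie at 44.0 to 64.1 CPM.

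Among the members, deviations from the mean of the matching controls (same cross, same set) were compared over the 35 libraries, as a description with no test, since the values share libraries, depth and scaling. Rragd had Pearson r between -0.28 and 0.16 with the 7 others, with r = 0.10 for Rragc. The highest values were 0.68 between Lamtor5 and Lamtor2 and 0.64 between Lamtor5 and Lamtor1.

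The 5 genes whose deviations were most like those of Rragd, of 9798 genes with a mean of at least 10 CPM, were Atp6v0d2 (r = 0.86), Egfl6, Ckb and Ckmt1 (each r = 0.83) and Aqp6 (r = 0.82). Atp6v0d2 encodes a subunit of the vacuolar proton pump, Ckb and Ckmt1 encode creatine kinases of the cytosol and of mitochondria, and Aqp6 encodes a water channel of intercalated cells. The log2 fold changes of the 5 genes were 0.78 to 2.06 in the Flcn cross and 0.57 to 1.81 in the Flcn/Tfe3 cross, all called by edgeR, and -0.06 to 0.62 in the Flcn/Tfeb cross, none called. The rule for likeness used these same libraries, so the shared rise in 2 crosses is what chose them.

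Cell type markers were read beside Rragd, first those of intercalated cells, the acid-base cells of the collecting duct. The summed level of the 5 intercalated cell markers (Foxi1, Slc4a1, Slc26a4, Atp6v1g3 and Atp6v1b1) was 328 to 420 CPM in the Flcn KO and 149 to 209 in the controls. It was 248 to 265 CPM in the Flcn/Tfeb DKO and 176 to 230 in the controls, and 238.4 to 377 CPM in the Flcn/Tfe3 DKO and 150 to 269 in the controls. Of these 5, edgeR called 1 in the Flcn cross (Atp6v1g3, a proton pump subunit, log2 fold change 1.31) and 0 in the other crosses. Atp6v1g3 made up most of the sum, with a mean of 278 CPM in the Flcn KO and 113 CPM in the controls, so the sum mainly follows this gene. The log2 fold changes of the other 4 in the Flcn cross, none called, were 0.83 for Foxi1, 0.68 for Slc4a1, -0.02 for Atp6v1b1 and -0.22 for Slc26a4. In the Flcn/Tfe3 cross Atp6v1g3 and Foxi1 each had 0.69 (adjusted p = 0.11 and 0.22 from edgeR) and the other 3 had 0.06 to 0.34. With both Flcn and Tfeb deleted the values, none called, were 0.41 for Atp6v1g3, 0.17 for Slc4a1, 0.07 for Atp6v1b1, -0.25 for Slc26a4 and -1.01 for Foxi1. None of the 5 was at 0 in all libraries of a group.

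The 5 thick ascending limb markers summed to 1369 to 1780 CPM in the Flcn KO and 952 to 1426 in the controls, to 1066 to 1194 and 1098 to 1228 CPM in the Flcn/Tfeb cross, and to 983 to 1377 and 915 to 1127 CPM in the Flcn/Tfe3 cross. Of them, Umod, which encodes uromodulin, was called in the Flcn cross (log2 fold change 1.0) and in the Flcn/Tfe3 cross (0.71), and the other 4 were not, with -0.29 to 0.18 and -0.19 to 0.08 in these crosses. Of the 5 principal cell markers, Scnn1b, a subunit of the epithelial sodium channel, was called in the Flcn cross (0.58). Aqp2, the water channel of the same cells, had -0.48 in the Flcn cross (unadjusted p = 0.0026, adjusted p = 0.20 from edgeR), not called. Scnn1g had 0.71, Aqp3 0.25 and Hsd11b2 0.16 there, none called. In the Flcn/Tfe3 cross Aqp2 had -0.40 (unadjusted p = 0.0018, adjusted p = 0.21 from edgeR), not called. Scnn1g had 0.42, Hsd11b2 0.34, Aqp3 0.29 and Scnn1b 0.19 in that cross, none called. With both Flcn and Tfeb deleted, Scnn1b had 0.29, Scnn1g 0.09, Aqp2 -0.16, Hsd11b2 -0.84 and Aqp3 -1.01, none called. The summed principal cell level was 336 to 449 CPM in the Flcn KO and 394 to 469 in the controls, with overlap. Aqp2 was the largest part of this sum, with a mean of 205 CPM in the Flcn KO and 286 CPM in the controls. The sum therefore mainly follows Aqp2 and not the other principal cell markers. It was 357 to 435 and 330 to 710 CPM in the Flcn/Tfeb cross, and 365 to 757 and 436 to 700 CPM in the Flcn/Tfe3 cross. The 4 distal convoluted tubule markers summed to 218 to 314 CPM in the Flcn KO and 296 to 330 in the controls, and neither they nor the 5 proximal tubule markers had a call by edgeR in any cross. The markers of podocytes, endothelium, stroma, nephron progenitors, myeloid cells and red blood cells had no call either. The 3 nephron progenitor markers, 2 of them tested in the Flcn cross, summed to 6.64 to 18.4 CPM in the Flcn KO and 18.6 to 33.2 in the controls. These ranges only just missed each other, at low levels. The log2 fold changes were -1.0 for Six2 (adjusted p = 0.49 from edgeR) and -0.70 for Eya1 (adjusted p = 0.42 from edgeR), neither called. The nephron progenitor sums were 42.7 to 91.6 CPM in the Flcn/Tfe3 DKO and 30.2 to 108 in the controls, with overlap. The part of these marker differences in the Rragd result was not tested.

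**Figure D5:**
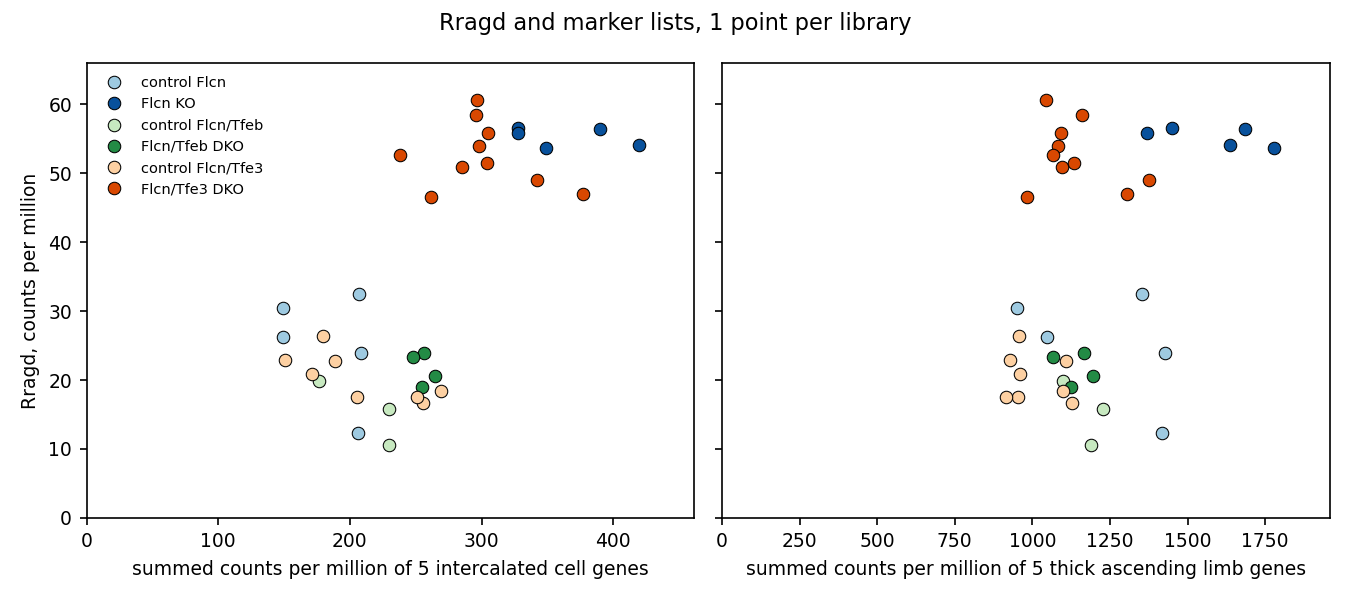
Rragd level (vertical axis, CPM) against the summed level of 5 intercalated cell genes or 5 thick ascending limb genes (horizontal axes, CPM), with 1 point per library and colours for the 6 groups. Flcn KO and Flcn/Tfe3 DKO libraries lie at or above 46.5 CPM of Rragd, while Flcn/Tfeb DKO libraries stay at or under 23.9 CPM at summed levels of 248 to 265 CPM, where Atp6v1g3 had a mean of 190 CPM.

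Other genes of the pathway around the Rag GTPases were read from a list of 40, of which 38 were tested in each cross. EdgeR called 0 of 38 in each cross, with 5, 1 and 3 at an unadjusted p under 0.05 (beside 9.07%, 5.07% and 7.15% of all genes tested), and DESeq2 called 0 in each. Their median log2 fold changes were -0.04, -0.09 and 0.07. The list holds GATOR1 (Depdc5, Nprl2 and Nprl3), which inactivates RagA and RagB, GATOR2, KICSTOR, the folliculin complex, amino acid sensors, mTORC1, TSC with Rheb, mTORC1 substrates and MAP kinase partners of Lamtor3.

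In the Flcn cross the highest were Fnip2, a partner of folliculin, at 0.37 (adjusted p = 0.53), and Rheb, the direct activator of mTORC1, at 0.32 (adjusted p = 0.38). Kptn, of KICSTOR, which tethers GATOR1 to the lysosome, was the lowest at -0.47. Fnip2 was again highest in the Flcn/Tfe3 cross at 0.60 (adjusted p = 0.43), followed by Eif4ebp1, a translation repressor and mTORC1 substrate, at 0.36, and the lowest were Rhebl1, a paralog of Rheb, at -0.71 (adjusted p = 0.34) and Itfg2, of KICSTOR, at -0.39. With both Flcn and Tfeb deleted, the highest were Rptor, which recruits mTORC1 substrates, at 0.68 and Nprl3 at 0.64, and the lowest were Eif4ebp1 at -0.74 and Tfeb at -0.73, with 6.5 to 7.96 CPM of Tfeb in the DKO and 7.02 to 19.6 CPM in the controls (adjusted p = 0.80 for all 4, edgeR).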

How the data were processed

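RNA of 35 newborn mouse kidneys had been made into QuantSeq 3′ mRNA libraries, in which reads come from transcript ends, so counts do not scale with gene length. Per the labels and the methods, the authors trimmed the reads (the submitters' processing notes name Trim Galore, the methods another tool), aligned them with STAR to mm10 and counted reads on genes. The deposited values are raw counts, with 31053 genes in every file. Reads aligned to more than 1 place, 33.7% to 49.4% of the total in the 26 libraries that list them, are not in gene counts. Strand setting and counting annotation are not given in the sources used here.

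Each cross was fitted alone with edgeR 4.0.16 in R 4.3.3 (filterByExpr, TMM factors, glmQLFit and glmQLFTest, two-sided, Benjamini-Hochberg adjustment over all genes tested, called under 0.05), with the set as a term for the Flcn/Tfe3 cross. Effects were compared between crosses, and between sets B and C, by interaction contrasts. The 95% intervals come from the same fits. CPM used TMM factors over all 35 libraries. Ratios had a pseudocount of 0.5 and exact permutation tests. The fits were also run on simulated data, with the outcome not reported here. The number of libraries differed between crosses, and the fits are not equally sensitive in each.

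The text names all 9 members, the pathway genes called in a comparison, Flcn, Tfeb and Tfe3, the 2 highest and 2 lowest pathway genes in each cross (1 of them is not reported here), and the 5 genes most like Rragd by Pearson r of log2 CPM after subtracting the mean of the matching controls. The members and lists were chosen with earlier results of these data known. Nothing says whether libraries share a litter, so p-values measure the spread between these samples. No 2 libraries of the same group and set agreed within sampling noise (chi-square per degree of freedom 2.71 to 39.1 over 63 pairs). DESeq2 1.42.0, other scaling, filters, thresholds, sets and left-out libraries were the alternatives.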

Additional observations from a re-analysis of the deposited data

Results flagged for a closer look

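Within the 5 groups of 4 or more libraries, the levels of the 9 members and the Rragd to Rragc ratio were checked for a sample far from the others by Dixon's test at the 95% level, which chance alone passes in about 1 in 20 groups. Of 50 such tests, 3 found such a sample. Rraga in control Flcn/Tfe3 replicate 3 had 141.9 CPM, where the next control had 229 CPM. Rragb in control Flcn replicate 2 had 2.733 CPM, from 6 counts, where the next control had 0.53 CPM. Rragc in Flcn/Tfe3 DKO replicate 6 had 65.79 CPM, where the next library had 56.2 CPM. Rragd had no such sample.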

How the results depend on the processing

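The Rragd rise was called in the Flcn and Flcn/Tfe3 crosses under DESeq2, RLE factors, each filter and each left-out library (log2 fold change 0.97 to 1.22 and 1.31 to 1.40), and in the Flcn/Tfeb cross it was called under none of them (0.25 to 0.71). Fitted alone, set C called 2 of 8 members of the Flcn/Tfe3 cross, Rragd and Lamtor5, beside 4.68% of all genes tested. Leaving out 1 library at a time gave 0.63 to 1.07 for the Flcn/Tfe3 less Flcn/Tfeb difference, called only without control Flcn/Tfeb replicate 2, and 0.67 to 0.86 for the Rragd to Rragc ratio in the Flcn/Tfeb cross, no longer under 0.05 because fewer regroupings are left.

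Libraries with the same number in their titles did not deviate together, so these numbers showed no pairing. In set C the count columns are numbered differently from the titles. The block used the title numbers, so its set C pairs may be arbitrary. With a replicate block, over the libraries whose number occurs in both groups, the Flcn/Tfe3 fit had Rragd at 1.29 (adjusted p = 0.061 from edgeR on fewer libraries), 0 members called and 0 genes called instead of 48. The ratio differences were 1.09, 0.84 and 1.27 with exact sign-flip p of 0.0625, 0.25 and 0.0625, the smallest that 5, 3 and 5 pairs allow.

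Values close to 0 changed sign, none of them called. In the Flcn/Tfe3 cross Rragc was -0.006 with DESeq2, -0.009 with RLE factors and -0.087 in set C, Lamtor1 was 0.02 with the replicate block and 0.20 in set B, Lamtor2 was 0.12 in set B, and Lamtor4 was -0.019 with the block and -0.074 in set C; the cause was not tested. Left-out libraries gave, in that cross, -0.065 to 0.06 for Rragc and -0.006 to 0.054 for Lamtor4, in the Flcn/Tfeb cross -0.14 to 0.15 for Lamtor1, -0.13 to 0.20 for Lamtor5 and -0.25 to 0.063 for Rraga, and in the Flcn cross -0.10 to 0.15 for Lamtor3. DESeq2 called 113 genes in the Flcn cross and 96 in the Flcn/Tfe3 cross, where edgeR called 62 and 48, and edgeR called 95 in the Flcn cross without the filter and 100 at an adjusted p under 0.1. Over left-out libraries edgeR called 37 to 58 genes in the Flcn cross (37, 39 and 40 without Flcn KO replicates 3, 4 and 2) and 30 to 53 in the Flcn/Tfe3 cross (30 without DKO replicate 7). DESeq2 called 716 genes for set C less set B (162 with edgeR), 8 for Flcn/Tfeb less Flcn (2 with edgeR) and 7 for Flcn/Tfe3 less Flcn/Tfeb (3 with edgeR), no member among them. At 18 to 274 counts of Rragd and 0 to 11 of Rragb per library, depth limits the latter most.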
